A study of Mus musculus with 9 samples.

Results

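Hearts with a fibroblast deletion of Myc were compared with wild-type hearts after the same operation, transverse aortic constriction (TAC), across all measured genes. TAC narrows the aorta by surgery, so that the left ventricle pumps against a raised pressure and over weeks enlarges and fails. The comparison rests on 6 of the 9 libraries of the study, 3 named KO-TAC and 3 named TAC, chosen by their labels alone. The 3 control libraries, from wild-type hearts of mice given a sham operation, are shown beside them. TAC hearts were wild type and carry a 12-week time, with no tamoxifen stated for them. KO-TAC hearts, also at 12 weeks, were c-Myc flox/flox with a hemizygous Tcf21 iCre, whose MerCreMer protein cuts the floxed gene after tamoxifen, given at 45 mg/kg on 5 consecutive days. All mice were males of 8 to 12 weeks when operated on. Tcf21 is the gene of a transcription factor of cardiac fibroblasts and epicardium, so the cells that drive this Cre are a minority of the heart. No KO heart without TAC and no Cre heart with intact Myc was analysed here, so loss of Myc, the Cre, tamoxifen and any DNA carried along with either allele cannot be told apart. The labels number replicates without saying that each is its own mouse, so the p-values measure the spread between these libraries. Each library is called a heart below. Chi-square per degree of freedom between replicates of a group was 23.42 to 1111, so the spread is more than counting error. How much of it lies between mice was not tested.

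Myc is a transcription factor that binds E-box sequences together with its partner Max and raises genes of ribosome making, metabolism and the cell cycle. In the adult heart it is low and is among the genes that respond within hours to pressure load or growth factors. Immediate early genes share that behaviour. They include Fos and Jun family members, which pair into the AP-1 factor, the Egr zinc-finger factors and the Nr4a orphan receptors, and they are switched on by MAP kinase, calcium and cyclic AMP signals without new protein synthesis. Fibroblasts activated by load make collagens, matricellular proteins and cytokines that act on muscle cells.

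Total counts were 59702513 to 109162107 in the 6 libraries, with 23.78% to 38.45% of counts from mitochondrially encoded genes over all 9. Levels below are CPM, each gene's count scaled to the size of its library with TMM factors, and are given in the order of replicates 1, 2 and 3. The TAC hearts were unlike one another: for the median gene the SD of log2 CPM between hearts was 0.604 in TAC, 0.33 in KO-TAC and 0.171 in control hearts. Endothelial minus cardiomyocyte marker levels on the log2 scale were -1.98, -3.84 and 0.0792 in the TAC hearts, against -2.78, -3.52 and -3.77 in the KO-TAC hearts and -4.14 to -4.01 in controls. TAC replicate 2 thus lay near the controls in its balance of cell markers, and TAC replicate 3 lay farthest from them. Against the tissue label, Myh6, the main myosin of mouse ventricle, was counted at 5419 CPM or more in every heart and only 5 of 15 markers of lung, thymus and skeletal muscle were high enough to be tested.

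No gene passed the main test. Of 19051 genes tested with edgeR, 0 (0%) were called lower and 0 (0%) higher in KO-TAC than in TAC hearts at an adjusted p under 0.05, and the lowest adjusted p was 0.128. At an unadjusted p under 0.05, 859 genes (4.51%) were lower and 561 (2.94%) were higher. DESeq2, run as an alternative on the same counts, called 117 genes lower (0.628%) and 77 higher (0.413%) of 18642. Of the 117 genes lower by DESeq2, 95.7% were protein-coding and 1 was a pseudogene, and of the 77 higher, 57.1% were protein-coding and 9 were pseudogenes. The 3 KO-TAC values were all lower than the 3 TAC values for 914 genes (4.8%) and all higher for 984 (5.17%). They lay below all 6 other hearts for 155 genes (0.814%) and above all 6 for 240 (1.26%). The median log2 difference over all genes was 0.0103, with 49.2% of genes lower. Counts for gene lists below are to be read against these shares. Counts from a fit without 1 heart are to be read against the shares of that fit at an unadjusted p under 0.05. Without TAC replicate 2 these were 12.8% lower and 15.6% higher. The shares lower were 2.27% without TAC replicate 3 and 2.06% without KO-TAC replicate 3. A fold below is a value with its error and not a called change, since its edgeR adjusted p was 0.128 or more.

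The targeted gene came first. Myc (chromosome 15, 61985391 to 61990374, GRCm38) stood at 4.22, 1.87 and 4.75 CPM in the KO-TAC hearts and at 8.93, 6.22 and 14.2 CPM in the TAC hearts, with 2.15, 2.47 and 1.55 CPM in controls. Every KO-TAC heart lay below every TAC heart, and KO-TAC replicate 2 lay within the control range. Myc thus differed by -1.44 on the log2 scale (SE 0.41), with an edgeR adjusted p of 0.555 and a DESeq2 adjusted p of 0.0732, and without TAC replicate 3 it was -1.06. RNA of the whole heart also holds Myc transcripts of cells without Cre, and fewer cells of a type and less RNA per cell cannot be told apart in it. Tcf21 stood at 4.09, 3.89 and 4.13 CPM in KO-TAC, 5.98, 6.07 and 6.89 CPM in TAC hearts and at 4.90, 6.44 and 6.39 CPM in control hearts. The KO-TAC values were below those of all 6 other hearts, by a log2 difference from TAC of -0.64 (SE 0.20, edgeR adjusted p = 0.629). The KO-TAC hearts carry the Cre at Tcf21, and a change of that allele and of the number of fibroblasts cannot be told apart. Of the 17 resting fibroblast markers, which include Tcf21, 14 were lower, 3 at an unadjusted p under 0.05, with a median of -0.25, and without TAC replicate 1 the median was -0.07 with 9 of 17 lower.

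**Figure D1:**
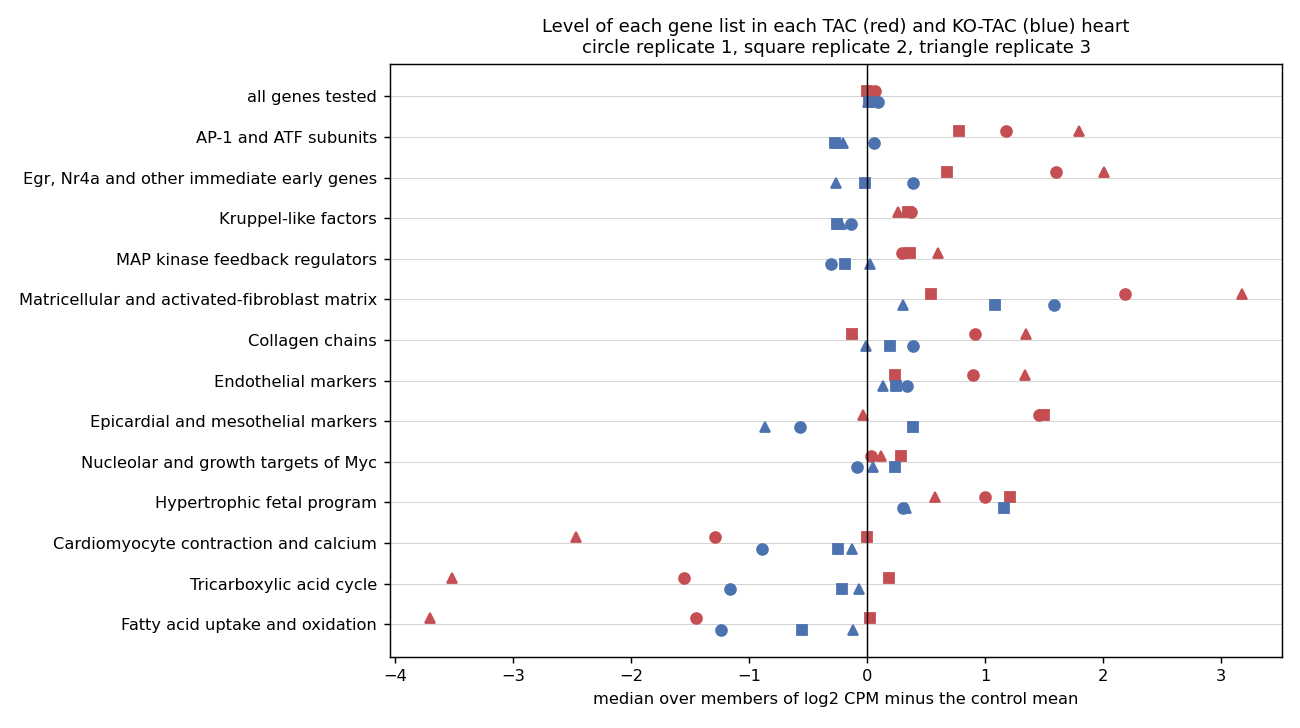
Each row is a gene list. The x axis is the median over its members of log2 CPM minus the control mean, with 1 point for each TAC heart (red) and KO-TAC heart (blue). For AP-1 subunits, Egr and Nr4a genes, Kruppel-like factors and MAP kinase feedback regulators the red and blue points do not overlap, whereas for matrix, muscle and metabolic lists TAC replicate 2 (red square) lies among or beyond the KO-TAC hearts.

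The clearest group was the AP-1 subunits. All 10 tested members were lower in KO-TAC than in TAC hearts with a median log2 difference of -1.51, 8 of them at an unadjusted p under 0.05 and 7 with a DESeq2 call. In 9 of the 10 every KO-TAC heart lay below every TAC heart. The list stood 1.17, 0.78 and 1.80 above the control mean in the TAC hearts and at 0.06, -0.27 and -0.21 in the KO-TAC hearts on the log2 scale, so the KO-TAC hearts were near control level and TAC replicate 2 was high like the other TAC hearts. The list was drawn up with its direction known, so the shared direction is a description.

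Fos, the subunit that gives AP-1 its name, was counted at 13.4, 7.02 and 12.1 CPM in TAC hearts and at 1.77, 0.39 and 0.45 CPM in KO-TAC hearts. Controls had 1.51, 5.52 and 1.64 CPM, so 2 of the KO-TAC hearts lay below every control. Its log2 difference, -3.61 (SE 0.73), was 12.2-fold, at adjusted p of 0.267 by edgeR and 4.48e-05 by DESeq2. Fosl2, a Fos relative with longer-lived expression, stood at 43.4, 43.1 and 65.1 CPM in TAC hearts and at 14.7, 17.7 and 20.4 CPM in KO-TAC hearts. Controls had 26.6, 31.3 and 25.4 CPM, so for Fosl2 the KO-TAC hearts lay below all 6 others (log2 difference -1.52, SE 0.22, edgeR adjusted p = 0.204). Junb, a Jun partner of Fos proteins, was at 41.4, 19.2 and 58.4 CPM in TAC hearts and at 15.04, 13.4 and 9.20 CPM in KO-TAC hearts, a log2 difference of -1.66 (SE 0.37). Jun itself was at 64.1, 105 and 67.6 against 45.8, 45.7 and 32.8 CPM, and Jund, the more constant member, at 106, 119 and 99.7 against 71.0, 72.7 and 71.7 CPM.

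Atf3, a stress-induced factor that pairs with Jun proteins, shared the lowest adjusted p of all genes. It was counted at 23.6, 28.9 and 12.9 CPM in TAC hearts, at 3.81, 2.37 and 3.26 CPM in KO-TAC hearts and at 2.55, 4.06 and 3.13 CPM in controls. The KO-TAC and control hearts interleaved, and every TAC heart stood above both. This was a 6.91-fold difference (log2 -2.79, SE 0.34), with adjusted p of 0.128 by edgeR and 4.59e-11 by DESeq2. Atf3 passed the edgeR test without TAC replicate 3 (-3.05, adjusted p = 0.0215), without TAC replicate 2 (-2.53, adjusted p = 0.048) and with the marker balance above as a covariate (-3.06, adjusted p = 0.0078). The other members followed with smaller counts. Maff, a small Maf protein, was at 20.1, 16.0 and 33.6 CPM in TAC hearts and at 8.30, 9.79 and 6.72 CPM in KO-TAC hearts.

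Among Egr, Nr4a and other immediate early genes, 12 of 14 tested members were lower with a median of -1.44, 10 lower and 1 higher at an unadjusted p under 0.05, and 7 lower and 1 higher with a DESeq2 call. Egr1, a factor induced by serum and stretch, was at 104, 19.2 and 68.5 CPM in TAC hearts and at 16.6, 10.05 and 11.2 CPM in KO-TAC hearts, against 12.6, 24.9 and 13.1 CPM in controls. TAC replicate 2 lay within the control range of Egr1 and only a little above the highest KO-TAC heart. Egr3 was at 11.0, 4.32 and 15.8 against 1.95, 2.05 and 0.84 CPM. Nr4a1, an orphan receptor of the early response, was at 76.4, 20.1 and 51.0 CPM in TAC hearts and at 9.10, 8.56 and 4.99 CPM in KO-TAC hearts, the latter below all 3 controls (11.5, 16.3 and 9.70 CPM). The 2 groups differed by -2.70 on the log2 scale (SE 0.46), at adjusted p of 0.237 by edgeR and 7.69e-06 by DESeq2. Nr4a3, its relative, differed in pattern: TAC replicate 2 was the highest heart at 30.2 CPM, with 9.73 and 9.07 CPM in the other TAC hearts and 1.84, 3.41 and 1.96 CPM in KO-TAC hearts.

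**Figure D2:**
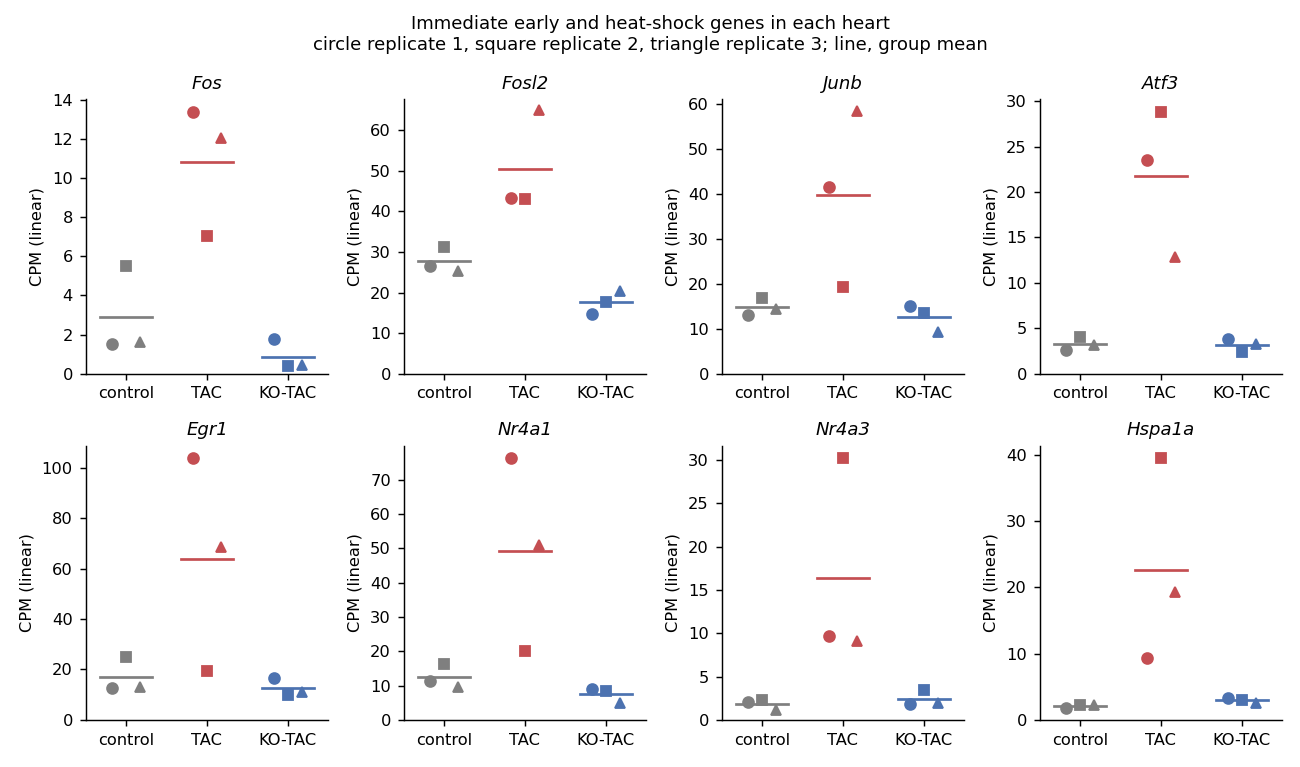
CPM on a linear axis from 0 in each control, TAC and KO-TAC heart for 8 genes, with the group mean as a line and the replicate as the point's shape. Every KO-TAC heart lies below every TAC heart in all 8 panels. TAC replicate 2 (square) is the lowest TAC heart for Egr1 and Nr4a1 and the highest for Nr4a3 and Hspa1a.

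Arc and Srf were the 2 members with a higher fitted level. Arc, an early gene better known from neurons, stood at 14.7, 28.5 and 28.7 CPM in KO-TAC hearts against 8.21, 4.16 and 7.97 CPM in TAC hearts and at 2.39, 2.96 and 3.62 CPM in control hearts. All KO-TAC hearts were above all 6 others (log2 difference 1.82, SE 0.34, edgeR adjusted p = 0.25, DESeq2 adjusted p = 0.000872). Arc lies on chromosome 15, as Myc does, and returns below. Srf, the factor that binds many early gene promoters, showed no such pattern, at 32.02, 82.4 and 15.3 CPM in TAC hearts and at 29.0, 54.2 and 71.8 CPM in KO-TAC hearts.

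Further lists of regulators were lower too, in most or all of their members. All 11 Kruppel-like factors were lower (median -0.44, 4 at an unadjusted p under 0.05), and the list stood 0.38, 0.34 and 0.26 above control in TAC hearts and at -0.14, -0.25 and -0.22 in KO-TAC hearts. Klf4, a quiescence factor of vessel walls and fibroblasts, was at 80.0, 55.2 and 90.6 against 40.6, 33.6 and 24.1 CPM. Of the MAP kinase feedback regulators, 12 of 14 were lower with 4 at an unadjusted p under 0.05 (median -0.50). Dusp1, a phosphatase that switches off stress-activated kinases, was at 114, 62.5 and 102 CPM in TAC hearts and at 40.8, 34.9 and 29.7 CPM in KO-TAC hearts, with a DESeq2 adjusted p of 0.000872. All 10 mRNA decay and antiproliferative regulators were lower (median -0.44, 4 at an unadjusted p under 0.05). Among them Zfp36, which destabilises cytokine mRNAs, was at 61.5, 38.1 and 30.9 against 16.7, 16.7 and 12.0 CPM, and Arid5a, which stabilises them, at 27.2, 29.6 and 55.9 against 11.2, 7.73 and 7.03 CPM.

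The counts of the AP-1 list and of the Egr and Nr4a list did not rest on 1 TAC heart. Without TAC replicate 1, 8 of 10 and 9 of 14 were lower at an unadjusted p under 0.05, beside 961 of 19758 genes. Without TAC replicate 3, 9 of 10 AP-1 subunits and 9 of 14 Egr and Nr4a genes were lower at an unadjusted p under 0.05, beside 2.27% of all genes. Without TAC replicate 2 the counts were 9 and 11, beside 12.8% of all genes. With the marker level of each heart as a covariate they were 9 and 9, beside 3.8% of all genes, with medians of -1.06 and -1.08. At the same level the Kruppel-like factors had 5, 5, 5 and 7 lower without TAC replicates 1, 2 and 3 and with the covariate. The MAP kinase feedback regulators had 4, 6, 4 and 6 in these settings, and the mRNA decay and antiproliferative regulators 3, 5, 4 and 4. By direction alone, whatever the p, some lists lost members, and 9 of 10 AP-1 subunits were lower with the covariate. Without TAC replicate 2, 9 of 11 Kruppel-like factors and 9 of 14 MAP kinase feedback regulators were lower. Without TAC replicate 3, 8 of 10 mRNA decay and antiproliferative regulators were lower.

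Heat-shock genes went both ways. Of 20 cytosolic chaperones 10 were lower and 10 higher (median -0.14), and the 4 with an unadjusted p under 0.05 were all lower and all had a DESeq2 call. Hspa1a, the inducible Hsp70, was at 9.28, 39.4 and 19.3 CPM in TAC hearts and 3.36, 2.98 and 2.55 CPM in KO-TAC hearts, against 1.74, 2.21 and 2.19 CPM in controls. Its near-identical neighbour Hspa1b, whose reads can be split with it, was at 6.51, 29.8 and 15.8 against 3.04, 2.19 and 1.90 CPM. The other 2 were their co-chaperones Dnajb1 (13.2, 32.8 and 24.9 against 9.21, 10.5 and 9.73 CPM) and Dnaja1 (53.9, 115 and 103 against 43.4, 40.7 and 39.7 CPM). All 4 were highest in TAC replicate 2, the TAC heart whose matrix and muscle genes were nearest to control. The direction of the list as a whole depended on the setting. Without TAC replicate 2 its median was 0.44, with 4 lower and 6 higher at an unadjusted p under 0.05, beside 15.6% of all genes higher. Without TAC replicate 3, 15 of 20 members were lower (median -0.28), and with the marker covariate 19 of 20 were lower (median -0.47), 10 at an unadjusted p under 0.05.

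Stress and growth-arrest genes were lower in part. Of 17 p53 targets and Gadd45 genes 14 were lower, 5 at an unadjusted p under 0.05, and 1 was higher at that level (median -0.36, and -0.17 with 3 lower without TAC replicate 3). Cdkn1a, the cyclin-dependent kinase inhibitor p21, was at 33.1, 35.7 and 77.9 CPM in the TAC hearts, 13.9, 8.49 and 16.5 CPM in KO-TAC and 9.11, 6.56 and 9.96 CPM in control hearts (log2 difference -1.92, SE 0.38, edgeR adjusted p = 0.255). Gadd45a, a DNA damage and stress gene, went the other way and was the protein-coding gene of smallest p among those higher. It was at 18.6, 17.4 and 15.3 CPM in KO-TAC, 15.3, 15.2 and 15.1 CPM in control and only 6.58, 9.19 and 5.90 CPM in TAC hearts (log2 difference 1.24, SE 0.20, edgeR adjusted p = 0.215, DESeq2 adjusted p = 1.89e-05). In the integrated stress response 18 of 21 genes were lower with 2 at an unadjusted p under 0.05 (median -0.54). The median was -0.079 without TAC replicate 3 and -0.070 with the marker covariate. Without TAC replicate 2 there were 7 lower at that level, beside 12.8% of all genes. Atf4, the main transcription factor of this response and 1 of the 2 in the main fit, was at 71.7, 83.7 and 107 against 65.8, 62.3 and 47.3 CPM. Sik1, a salt-inducible kinase that holds back cyclic AMP targets, had the third smallest p, at 73.1, 47.7 and 58.7 CPM in the TAC hearts, 24.7, 22.1 and 19.1 CPM in the KO-TAC hearts and 30.7, 30.6 and 27.1 CPM in controls (-1.45, SE 0.20, edgeR adjusted p = 0.204). Pik3ip1, an inhibitor of PI3 kinase, was higher in KO-TAC hearts at 60.4, 61.1 and 45.3 against 34.2, 31.7 and 21.9 CPM, and Ddit4, an inhibitor of mTORC1, lower at 28.7, 22.1 and 17.3 against 65.3, 54.8 and 35.0 CPM.

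Nucleolar targets of Myc were split evenly in direction in the main fit. Of 30 nucleolar and growth targets of Myc 15 were lower and 15 higher, with a median of -0.03, and 1 was lower at an unadjusted p under 0.05. That gene was Ppan, a ribosome assembly factor, at 13.8, 9.20 and 32.8 CPM in TAC hearts and at 9.24, 8.29 and 7.98 CPM in KO-TAC hearts. Over the 6 hearts the list stood 0.03, 0.29 and 0.12 above control in TAC and at -0.09, 0.23 and 0.05 in KO-TAC hearts. Of 13 members of the network of Myc, Max and Mxd proteins, 11 were lower with a median of -0.19, and Myc and Max were the 2 with an unadjusted p under 0.05. Of 34 cytosolic ribosomal protein genes 23 were lower with a median of -0.06, and 1, Rpl30, at an unadjusted p under 0.05. Of 27 cell cycle genes 23 were lower with a median of -0.64, though 2 lower and 1 higher at an unadjusted p under 0.05, and the list was 1.70 above control in TAC replicate 3 but at 0.30 and -0.33 in the other TAC hearts. That direction turned without TAC replicate 3, with 9 of 27 lower (median 0.096), and with the marker covariate, with 6 of 27 lower (median 0.23). Without TAC replicate 2 there were 12 lower at an unadjusted p under 0.05, beside 12.8% of all genes.

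The reference promoters of both groups are shown for 4 genes, to set the E-box CACGTG that Myc binds in its sequence beside the levels of genes with it. Windows were 300 bases of RefSeq sequence on GRCm38.p6, from 250 before to 50 after a gene's start, and printed are the 250 bases before it. CACGTG, which reads alike on both strands, was in 7 of 24 windows (29.2%) of nucleolar and growth targets, 5 of 12 (41.7%) of the Myc, Max and Mxd network and 2 of 20 of the AP-1, Egr and Nr4a lists. It was in 4 of 9 (44.4%) of the Kruppel-like factors, in 9.75% of 12672 promoters of tested genes and in 7.24% of 27025 promoters overall. Differences between these shares were not tested. Capitals mark CACGTG in Egr2 (chr10:67535249-67535498, forward strand), Nop2 (chr6:125131633-125131882, forward strand) and Cdk4 (chr10:127063285-127063534, forward strand), and CArG boxes, the binding motif of Srf, in Srf (chr17:46556163-46556412, reverse strand).
Egr2: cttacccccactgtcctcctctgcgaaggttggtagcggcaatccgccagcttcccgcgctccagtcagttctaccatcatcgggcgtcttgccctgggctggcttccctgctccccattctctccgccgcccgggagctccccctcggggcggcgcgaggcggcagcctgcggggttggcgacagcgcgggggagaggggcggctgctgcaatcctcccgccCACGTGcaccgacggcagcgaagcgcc
Nop2: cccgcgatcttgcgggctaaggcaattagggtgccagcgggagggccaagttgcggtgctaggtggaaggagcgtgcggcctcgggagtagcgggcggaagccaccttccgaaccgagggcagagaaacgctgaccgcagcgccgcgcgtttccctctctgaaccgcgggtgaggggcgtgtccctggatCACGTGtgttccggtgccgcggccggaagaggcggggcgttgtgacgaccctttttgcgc
Cdk4: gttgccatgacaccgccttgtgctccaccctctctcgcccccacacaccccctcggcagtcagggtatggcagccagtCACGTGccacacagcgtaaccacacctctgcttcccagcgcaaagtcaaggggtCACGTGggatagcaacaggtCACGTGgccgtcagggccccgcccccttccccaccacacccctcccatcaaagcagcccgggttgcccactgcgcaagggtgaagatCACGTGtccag
Srf: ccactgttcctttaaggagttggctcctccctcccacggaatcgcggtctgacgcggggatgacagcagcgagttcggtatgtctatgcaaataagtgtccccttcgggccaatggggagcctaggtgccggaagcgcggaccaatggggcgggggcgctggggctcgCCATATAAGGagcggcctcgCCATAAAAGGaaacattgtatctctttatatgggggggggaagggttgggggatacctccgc
Egr2, an early gene with 1 E-box, was at 9.41, 0.97 and 5.95 CPM in TAC hearts and at 1.08, 0.56 and 0.69 CPM in KO-TAC hearts. Nop2, a nucleolar RNA methyltransferase with 1 E-box, was at 15.1, 21.3 and 21.9 against 11.4, 16.0 and 15.2 CPM, and Cdk4, a cell cycle kinase with 4, at 50.2, 36.9 and 50.8 against 47.3, 40.4 and 35.9 CPM. For both, the KO-TAC and TAC ranges overlapped. The cyclic AMP response element TGACGTCA, which also reads alike on both strands, was in no window of the 20 early genes, beside 1.85% of all promoters. The CArG box was in 1 of the 20, beside 1.59%. Only exact matches were counted. Windows were at hand for 10 of the 14 tested Egr and Nr4a genes, and Egr1, Egr3 and Arc were among those without one. These counts therefore do not show that the early genes lack such elements. These windows do not reach more distant elements, and a match is not a measured binding site.

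Matrix genes were lower in KO-TAC hearts as a group, but the TAC hearts were unlike one another in them. Of 26 matricellular and activated-fibroblast genes 23 were lower (median -1.20, 9 at an unadjusted p under 0.05, 3 with a DESeq2 call). The list stood 2.19, 0.54 and 3.18 above control in the TAC hearts and 1.59, 1.09 and 0.30 above it in the KO-TAC hearts, so TAC replicate 2 lay between KO-TAC replicates 2 and 3. Without TAC replicate 3 the median was -0.37 with 4 at an unadjusted p under 0.05, beside 2.27% of all genes. Without TAC replicate 2 it was -1.55 with 21, beside 12.8% of all genes. With the marker covariate it was 0.12 with 11 of 26 lower. Postn, the periostin gene of activated fibroblasts, shows it: 409, 45.8 and 1074 CPM in the TAC hearts, 232, 245 and 29.4 CPM in KO-TAC and 35.1, 24.2 and 31.1 CPM in control hearts. The KO-TAC range of Postn overlapped those of both other groups, while every TAC heart lay above every control. Its log2 difference from TAC was -1.59 (SE 0.98, edgeR adjusted p = 0.706). Of 19 collagen chains 18 were lower (median -0.68), 2 at an unadjusted p under 0.05. At that level there were 0 without TAC replicate 3 and 14 without TAC replicate 2, beside 2.27% and 12.8% of all genes. With the marker covariate 7 of 19 were lower (median 0.09).

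In 4 of 26 matricellular genes and 6 of 23 matrix proteases and inhibitors every KO-TAC heart lay below every TAC heart, beside 4.8% of all genes. Adamts1, a protease that cleaves versican and binds the heparin of the matrix, had the smallest p of all genes. It was at 95.2, 92.7 and 103 CPM in TAC hearts, which were close together, at 30.6, 31.9 and 20.5 CPM in KO-TAC hearts and at 34.3, 44.5 and 36.2 CPM in controls. The KO-TAC hearts lay below all 6 others (log2 difference -1.81, SE 0.22, 3.51-fold, edgeR adjusted p = 0.128, DESeq2 adjusted p = 4.59e-11). Thbs1, thrombospondin 1, which activates TGF-beta, was at 65.5, 33.1 and 74.3 CPM in the TAC hearts, 15.7, 12.3 and 10.4 CPM in KO-TAC and 9.59, 5.24 and 6.88 CPM in control hearts (-2.17, SE 0.34, edgeR adjusted p = 0.204). Ccn2, connective tissue growth factor, was at 266, 224 and 384 against 136, 147 and 79.1 CPM (-1.27, SE 0.31), above the control hearts (42.0, 56.9 and 50.7 CPM) in both groups. Plaur, the urokinase receptor, was at 5.38, 5.16 and 18.1 against 2.83, 1.73 and 1.70 CPM. Several matricellular genes, Thbs1, Ccn1 and Ccn2 among them, are also known as early response genes.

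**Figure D3:**
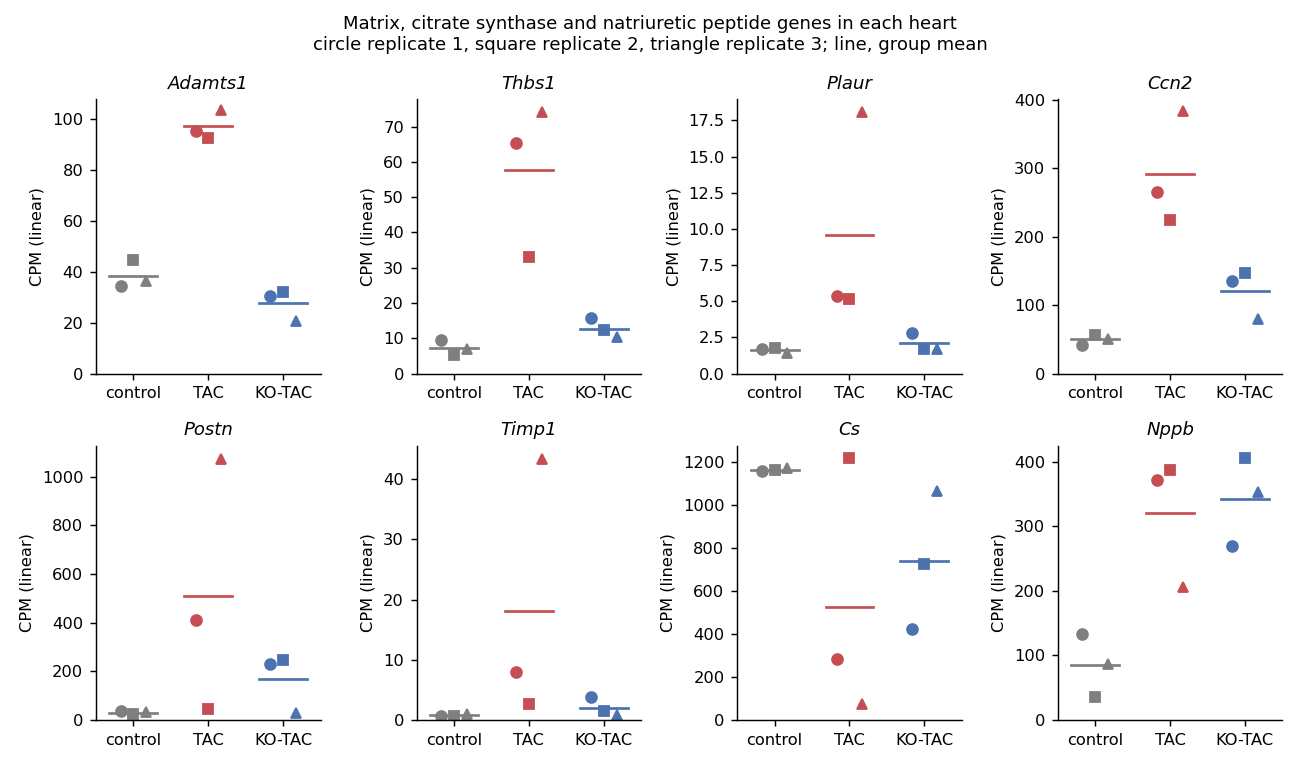
CPM on a linear axis from 0 in each heart for 8 genes, with the group mean as a line and the replicate as the point's shape. KO-TAC hearts lie below all TAC hearts for Adamts1, Thbs1, Plaur and Ccn2, while for Postn and Timp1 TAC replicate 2 (square) lies within the KO-TAC range, and Cs is lowest in TAC replicates 1 and 3.

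In contrast, Timp1, a metalloprotease inhibitor, was at 8.01, 2.64 and 43.4 CPM in TAC hearts and at 3.86, 1.56 and 0.76 CPM in KO-TAC hearts, with overlapping ranges. Of 23 matrix proteases and inhibitors 18 were lower, 8 lower and 1 higher at an unadjusted p under 0.05. At that level 4 were lower without TAC replicate 3 and 14 without TAC replicate 2, beside 2.27% and 12.8% of all genes. With the marker covariate 11 of 23 were lower (median 0.026). All 13 matrix crosslinking enzymes were lower (median -0.79), 5 at an unadjusted p under 0.05. Without TAC replicate 3 it was 10 of 13 (median -0.37, 3 at that level), without KO-TAC replicate 3 there were 2 at that level, beside 2.06% of all genes, and with the marker covariate 9 of 13 were lower (median -0.084). Lox, lysyl oxidase, was at 12.8, 4.91 and 56.3 against 11.7, 3.82 and 3.04 CPM, so that the highest value was that of TAC replicate 3 and the ranges overlapped (-1.99, SE 0.81, edgeR adjusted p = 0.663). Plod1, a collagen lysyl hydroxylase, was at 88.6, 106 and 137 against 69.6, 78.4 and 71.9 CPM.

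Chemokine and cytokine genes were counted at low levels. Cxcl1, a neutrophil attractant, was at 4.32, 1.70 and 3.25 CPM in TAC hearts and at 1.88, 0.31 and 0.62 CPM in KO-TAC hearts, where KO-TAC replicate 1 exceeded TAC replicate 2 (log2 difference -1.71, SE 0.66, edgeR adjusted p = 0.658). Its receptor Cxcr2 was read at 0.11, 0 and 0.10 CPM in TAC hearts and at 0.09, 0 and 0.14 CPM in KO-TAC hearts, a depth at which no difference could be seen. Of 24 chemokines and receptors 15 were lower, 4 at an unadjusted p under 0.05 (median -0.46, but 0.04 without TAC replicate 3 and 0.52 with the marker covariate). Ccl6 (10.9, 13.2 and 22.9 against 7.85, 6.17 and 5.73 CPM) and Ccl9 (10.2, 9.78 and 22.5 against 6.04, 3.98 and 3.95 CPM), macrophage chemokines, were the 2 with a DESeq2 call. In the interleukin-6, interleukin-1 and TNF families 19 of 23 were lower, 5 at an unadjusted p under 0.05. Socs3, a feedback inhibitor of interleukin-6 signalling, was at 5.48, 8.41 and 25.7 against 4.68, 2.67 and 2.17 CPM. The list's median, -0.88, was -0.15 without TAC replicate 3 and 0.014 with the marker covariate. Of 27 TGF-beta and activin genes 21 were lower, 5 at an unadjusted p under 0.05 (median -0.36), and of 19 complement genes 16 were lower, 3 at that level (median -0.54). Without TAC replicate 3 their medians were -0.15 and -0.19, with 1 and 2 at that level, beside 2.27% of all genes. Without TAC replicate 2 there were 13 and 10, beside 12.8% of all genes. With the marker covariate both medians were -0.089. Of 17 oxidative stress genes and metallothioneins 11 were lower, 5 at that level, with Mt2, a metal-binding acute phase gene, at 37.0, 51.2 and 55.6 against 22.8, 17.1 and 6.50 CPM.

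Markers of other cell types differed beside these lists. Of 21 endothelial markers 20 were lower (median -0.63), 9 at an unadjusted p under 0.05, and 6 with every KO-TAC heart below every TAC heart. At that level there were 3 without TAC replicate 3 (median -0.30), 3 without KO-TAC replicate 3 and 18 without TAC replicate 2. The shares of all genes lower in these fits were 2.27%, 2.06% and 12.8%. The list stood 0.90, 0.24 and 1.34 above control in TAC and 0.34, 0.24 and 0.13 in KO-TAC hearts. Pecam1, an endothelial adhesion molecule, was at 236, 158 and 265 against 148, 133 and 145 CPM, and Rgcc, a cell cycle regulator high in capillaries, at 72.8, 41.8 and 67.2 against 32.9, 23.4 and 17.8 CPM. Of 12 epicardial and mesothelial markers 11 were lower (median -1.25), 4 at an unadjusted p under 0.05, with 7 without TAC replicate 3 and 2 without TAC replicate 2. The list stood at 1.456, 1.503 and -0.0396 relative to control in TAC and at -0.566, 0.39 and -0.868 in KO-TAC hearts. TAC replicate 3 thus lay near control and below KO-TAC replicate 2. Wt1, an epicardial transcription factor, was at 9.79, 8.55 and 21.7 against 5.20, 3.18 and 3.64 CPM, and Aldh1a2, the retinoic acid synthesis enzyme of epicardium, at 9.29, 6.02 and 11.6 against 3.80, 4.83 and 4.57 CPM. Wt1 and Aldh1a2 were both highest in TAC replicate 3, so they do not stand for the list in that heart. Without it the list's median was -1.53, against -1.18 for Wt1 and -0.79 for Aldh1a2. Tcf21 is a gene of epicardium too, but in which cells the Cre cut in these hearts was not tested. Of 15 smooth muscle and pericyte markers 0 had an unadjusted p under 0.05 (median -0.04), of 19 macrophage and monocyte markers 3 lower, of 7 tested neutrophil markers 1 lower and of 15 lymphocyte markers 0. The macrophage list turned without TAC replicate 3, with 6 of 19 lower (median 0.23). It turned with the marker covariate too, with 3 of 19 lower (median 0.39). There 7 macrophage and 3 lymphocyte markers were higher at an unadjusted p under 0.05, beside 965 of 19051 genes. The part of a different mix of cells in the lower matrix, endothelial and early genes was not tested. The covariate cannot decide it, since it is made from the endothelial and cardiomyocyte lists themselves and holds no fibroblast marker.

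The direction of muscle and metabolic genes depended on single TAC hearts. All 15 genes of the tricarboxylic acid cycle, all 42 nuclear oxidative phosphorylation genes and all 25 contraction and calcium genes were higher in KO-TAC hearts, with medians of 0.49, 0.36 and 0.35, but at an unadjusted p under 0.05 there were 0, 0 and 1 of them. Without TAC replicate 3, 9 of 15, 33 of 42 and 14 of 25 were lower, with medians of -0.017, -0.088 and -0.015. With the marker covariate, which itself uses cardiomyocyte markers, 15 of 15, 41 of 42 and 20 of 25 were lower, with medians of -0.28, -0.26 and -0.22. Without TAC replicate 2, 9, 8 and 12 of them were higher at an unadjusted p under 0.05, beside 15.6% of all genes, with medians of 1.75, 0.82 and 1.19. Cs, citrate synthase, was at 286, 1219.7 and 73.0 CPM in TAC hearts and 425, 726 and 1068 CPM in KO-TAC hearts, against 1158 to 1174 CPM in controls. The highest and the lowest heart were both TAC hearts, and the log2 difference of 0.49 (SE 0.80) was -0.02 without TAC replicate 3. Fatty acid oxidation genes stood at -1.45, 0.03 and -3.70 in TAC and at -1.24, -0.55 and -0.12 in KO-TAC hearts relative to control. The TAC hearts held both the highest and the lowest value of this list. Its median difference was 0.50, against -0.01 without TAC replicate 3, -0.29 with the covariate and 1.54 without TAC replicate 2. The hypertrophic fetal program, the genes re-expressed by loaded muscle, had 7 of 16 members lower and 0 at an unadjusted p under 0.05. Nppa, atrial natriuretic peptide, was at 1245, 385 and 1120.0 against 1295, 740.3 and 312 CPM, and Nppb, the B-type peptide, at 371, 387 and 205 against 269, 406 and 353 CPM. The ranges of both genes overlapped, with log2 differences of -0.23 (SE 0.60) and 0.09 (SE 0.45).

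One KO-TAC heart stood apart in the circadian clock. Per1, a clock repressor that is also an early gene, was at 93.3, 70.7 and 6.81 CPM in KO-TAC replicates 1, 2 and 3 and at 89.4 to 172 CPM in TAC hearts. The clock list stood at 0.04, 0.10 and -1.31 relative to control in the KO-TAC hearts and at -0.20 to 0.02 in the TAC hearts. No member had an unadjusted p under 0.05. Without KO-TAC replicate 3 the medians of the AP-1 and Egr lists were -1.42 and -1.35.

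Genes outside the range of every other heart were most frequent on chromosome 15, where Myc lies. Of its 725 tested genes 38 (5.24%) had all 3 KO-TAC values above or all 3 below the 6 other hearts, against 2.07% over all genes and 3.49% on chromosome 19, the next highest. At an unadjusted p under 0.05 there were 10.8% on chromosome 15, 10.3% on chromosome 19 and 7.45% over all genes, and DESeq2 called 2.21% on chromosome 15, 2.05% on chromosome 13 and 1.02% over all genes. This count by chromosome was chosen after values were seen. By distance from Myc, 3 of 68 genes within 10 Mb were outside the other hearts (4.41%), 16 of 300 within 20 Mb (5.33%) and 22 of 424 farther away (5.19%). DESeq2 called 1 of 68 (1.47%), 9 of 300 (3.0%) and 7 of 424 (1.65%) of the same genes. These shares rest on few genes. Within 10 Mb of Tcf21, on chromosome 10, 1 of 97 genes was outside the other hearts (1.03%), and DESeq2 called 3 (3.09%). Ccn2, named above, is among the genes within 10 Mb of Tcf21. Near Myc the named genes of smallest p beside Myc itself were Has2, a hyaluronan synthase (1.38, 1.03 and 1.19 CPM in TAC against 0.50, 0.44 and 0.17 CPM in KO-TAC hearts), and Trib1, a kinase-like scaffold (20.8, 47.6 and 20.3 against 16.4, 16.0 and 13.7 CPM). Near Tcf21 the gene of smallest p was Sgk1, a serum- and glucocorticoid-induced kinase, at 165, 85.2 and 92.8 against 43.3, 33.9 and 30.5 CPM (-1.67, SE 0.29, DESeq2 adjusted p = 3.42e-05).

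**Figure D4:**
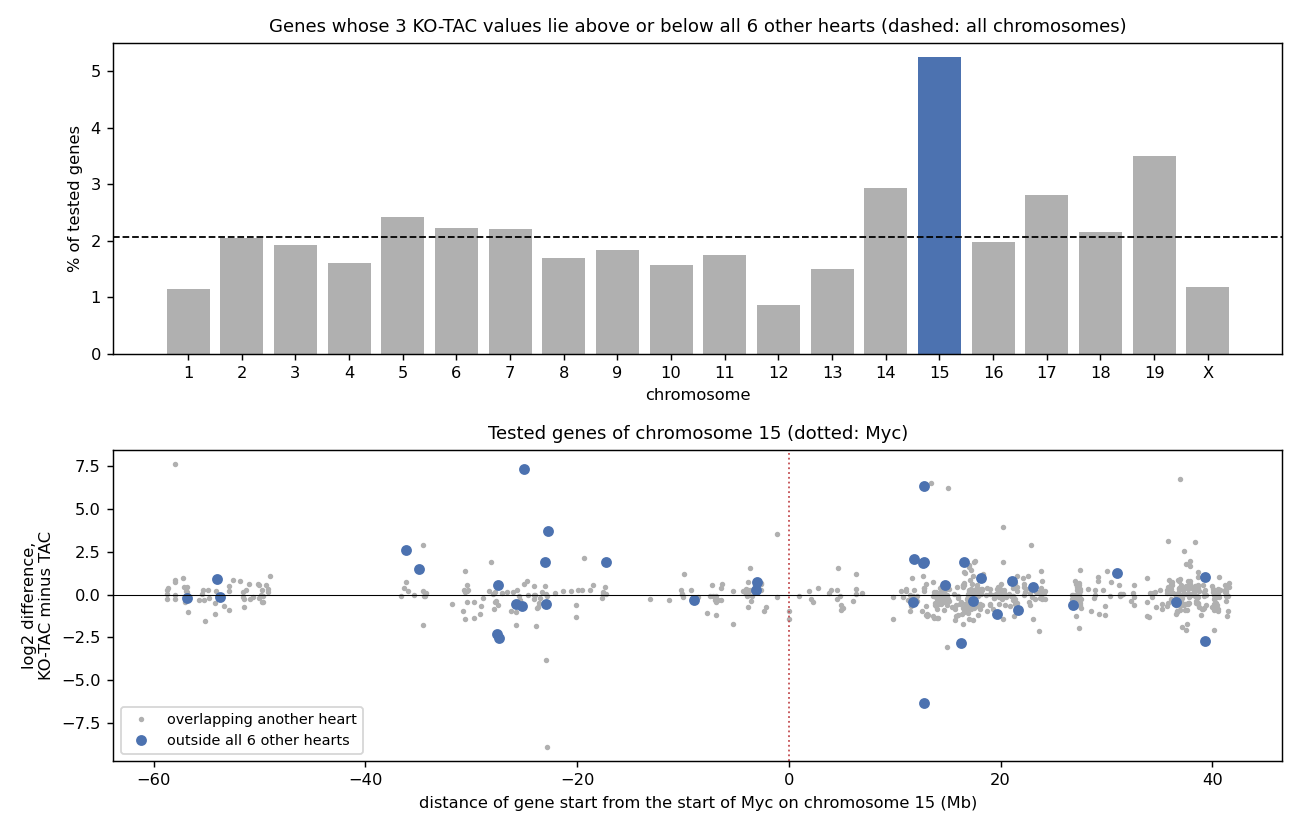
Top: bars give the percentage of tested genes on each chromosome whose 3 KO-TAC values lie above or below all 6 other hearts, with the share over all genes, 2.07%, as a dashed line. Chromosome 15 is highest at 5.24%. Bottom: each point is a tested gene of chromosome 15, with the distance of its start from that of Myc in Mb on the x axis and its log2 difference on the y axis, and the genes outside all other hearts (blue) are spread along the chromosome.

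Of 11 tested genes of the Ly6 cluster on chromosome 15, 7 were lower (median -1.14), 5 lower and 1 higher at an unadjusted p under 0.05, with 2 lower without TAC replicate 3. Psca, a small surface protein gene, was at 5.85, 17.9 and 15.9 CPM in KO-TAC hearts but at 0, 0.06 and 0.41 CPM in TAC hearts and at 0 in all 3 controls. Psca differed by 6.34 on the log2 scale (SE 1.14), at adjusted p of 0.267 by edgeR and 0.0347 by DESeq2. Lypd2, the next Ly6-family gene, was at 0 in all 3 KO-TAC hearts, at 0.05, 0.16 and 0.15 CPM in TAC hearts and at 0.57, 0.55 and 0.93 CPM in control hearts. Against the limit that a count of 0 allows, 3 counts over the group, it was at least 11.4-fold lower than in TAC hearts, for counting error only. Psca lies at 74714839 to 74717069, Lypd2 at 74732247 to 74734329 and Arc, which is not of this family, at 74669083 to 74672570 on chromosome 15 of GRCm38. All 3 start between 10 and 20 Mb from Myc. Ywhaz, a 14-3-3 protein gene on the same chromosome that was chosen after its values were seen, was at 66.6, 70.6 and 68.6 CPM in KO-TAC, 106, 98.3 and 117 CPM in TAC hearts and at 81.1, 80.7 and 82.0 CPM in control hearts, with little spread in any group (DESeq2 adjusted p = 0.000433).

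**Figure D5:**
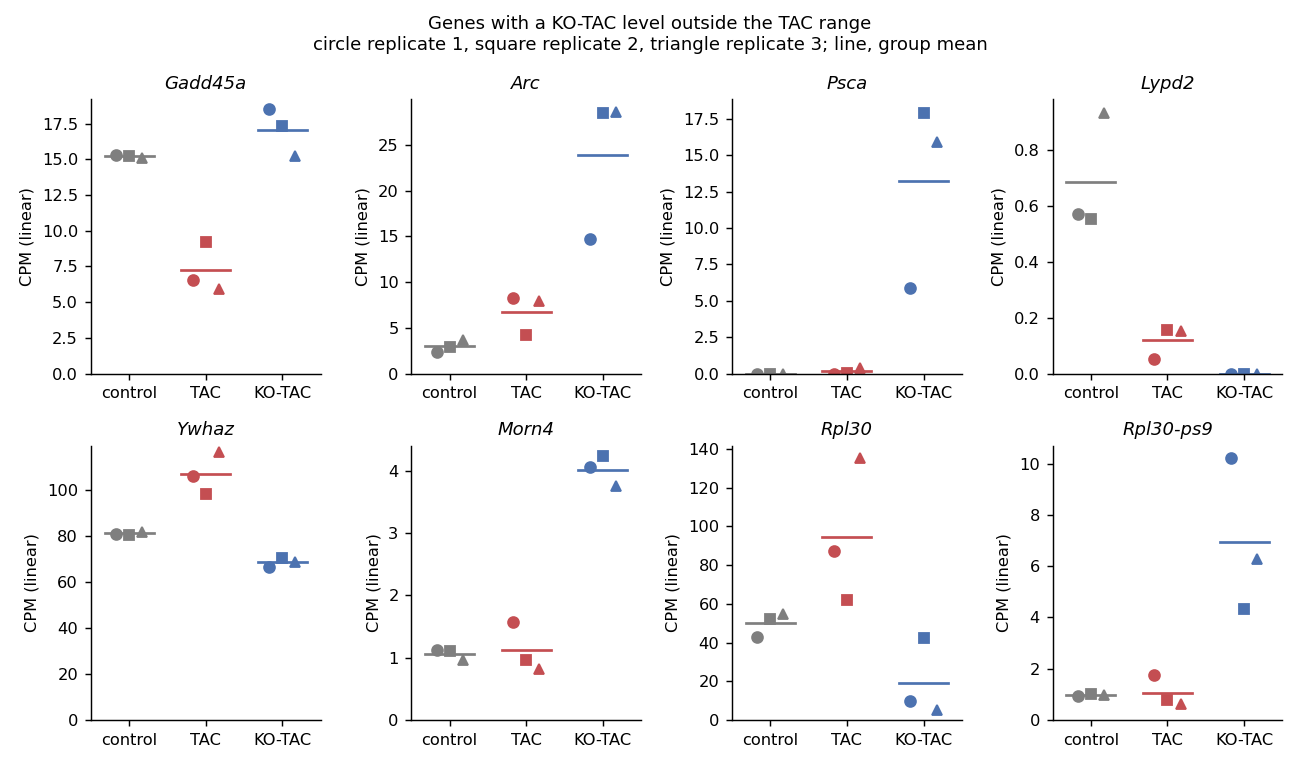
CPM on a linear axis from 0 in each heart for 8 genes, with the group mean as a line. Gadd45a is low in TAC hearts alone, and for the other 7 genes the KO-TAC hearts lie outside all 6 other hearts: above them for Arc, Psca, Morn4 and Rpl30-ps9, and below them for Lypd2, Ywhaz and Rpl30.

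Rpl30 and one of its pseudogene copies differed in opposite directions. Rpl30, a ribosomal protein gene of chromosome 15, was at 9.63, 42.1 and 5.19 CPM in KO-TAC, 87.1, 61.8 and 135 CPM in TAC hearts and at 42.8, 52.2 and 54.8 CPM in control hearts. Its processed copy Rpl30-ps9 on chromosome X was at 10.2, 4.34 and 6.27 CPM in KO-TAC, 1.77, 0.78 and 0.60 CPM in TAC hearts and at 0.93, 0.996 and 0.97 CPM in control hearts. Rpl3-ps2, a copy of Rpl3, was at 4.88, 4.65 and 6.46 CPM in KO-TAC hearts and below 0.46 CPM in all 6 others, and had the smallest p of the genes that were higher. Reads of such copies can be exchanged with those of their parents, and no label or header says how reads with several matches were counted, so these values are uncertain. Morn4, a protein-coding gene on chromosome 19 with no such copy problem known here, was at 4.06, 4.23 and 3.76 CPM in KO-TAC, 1.57, 0.97 and 0.81 CPM in TAC hearts and at 1.12, 1.10 and 0.97 CPM in control hearts (log2 difference 1.85, SE 0.31, edgeR adjusted p = 0.237). Irx4, a homeobox gene of ventricular muscle, was at 28.2, 39.0 and 27.3 CPM in KO-TAC, 15.5, 16.3 and 10.8 CPM in TAC hearts and at 31.0, 27.8 and 28.2 CPM in control hearts, so that like Gadd45a it was low in TAC hearts alone.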

How the data were processed

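Whole-heart RNA was sequenced in 9 libraries, 3 per group, with a directional kit, per the labels' protocols. The authors deposited 1 table of raw counts per gene symbol. Per the submitters' processing notes, StringTie 2.2.1 and DESeq2 1.42.0 were used, besides HISAT2 2.2.1, SAMtools 1.15 and Trim Galore 0.6.10, on GRCm38. The counter, annotation and strand setting were not given in the sources used here. Of 55401 rows, 110 repeated a symbol and were kept apart.

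Counts were fitted with edgeR 4.0.16 in R 4.3.3 (quasi-likelihood, TMM, filterByExpr with a minimum count of 10, all 9 libraries, group as the only term), and p-values were two-sided and Benjamini-Hochberg adjusted over 19051 genes at a threshold of 0.05. DESeq2 1.42.0, limma 3.58.1, other scalings and filters, left-out libraries, a replicate block and a marker covariate were alternatives. Log2 levels used a prior count of 2. The biological coefficient of variation was 42.1%, which limits what 3 libraries a group can show. The code was tested on simulated data. GENCODE M21 gave positions for 18622 of 19051 symbols (97.7%), and promoters came from RefSeq.

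The comparison and the 49 gene lists were chosen with earlier results of these data known. Named genes were Myc, Tcf21 and genes of prior interest, those of smallest p or largest difference, those of smallest p or highest level in each list, and those of smallest p within 10 Mb of Myc and Tcf21. List members were counted and not tested.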

Additional observations from a re-analysis of the deposited data

How the results depend on the processing

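The main test called 0 genes either way, and leaving out 1 library gave 0 to 11 lower and 0 to 2 higher. Without TAC replicate 2 the lower genes were Atf3, Egr1, Egr2, Egr3, Nr4a1, Junb, Ier2, Adamts1, Sik1, Thbs1 and Apold1, and without TAC replicate 3 only Atf3. DESeq2 called 117 lower and 77 higher, and, chosen after seeing the data, without TAC replicates 1, 2 and 3 in turn it called 171 and 200, 1561 and 2090, and 78 and 74. Voom with quality weights called 367 and 629, and the marker covariate 13 and 3. The cause of these differences was not tested.

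At an unadjusted p under 0.05 the main counts, 859 lower and 561 higher, were 405 and 847 with library size alone, 2454 and 3086 with quality weights, and 421 and 265 in a fit to 6 libraries. They were 407 to 2553 and 346 to 3108 with 1 library left out. DESeq2 without TAC replicate 1 gave 1367 and 1016, without replicate 2 gave 2911 and 3481, and without replicate 3 gave 544 lower. Higher counts were 965 with the covariate and 888 for voom without weights. The replicate block gave 189 and 190. Same-numbered TAC and KO-TAC libraries correlated at 0.106, 0.124 and -0.255 in their deviations, and the other pairs at -0.434 to 0.355. Not every library correlated best with its own number. With so few libraries this check cannot show whether a number marks a shared litter or day.

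Myc was -1.44, ranged from -1.68 to -1.06 with 1 library left out, was -0.94 with the covariate, and passed with quality weights (-1.74) and under DESeq2 without TAC replicate 2 (-1.70). The share of genes with an unadjusted p under 0.05 on chromosome 15 exceeded that over all genes by 3.31 percentage points, and by 1.39 to 5.76 over the alternatives, the highest without a filter on low counts.

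With the covariate the sign turned for Cdk4 (0.044), Cs (-0.28), Nppa (0.49), Nppb (-0.25), Postn (0.81) and Srf (-0.44). With 1 library left out in turn, Cs ranged from -0.017 (without TAC replicate 3) to 2.05, Srf from -0.14 (without TAC replicate 3) to 1.13, Nppb from -0.14 (without TAC replicate 3) to 0.25, Nppa from -0.80 to 0.15 (without KO-TAC replicate 3) and Cxcr2 from -0.58 (without KO-TAC replicate 3) to 0.67. Under DESeq2 without TAC replicate 3, Cs was -0.027, Nppb -0.14 and Srf -0.15, and without TAC replicate 1 Nppa was 0.023. Cxcr2 was -0.026 with library size alone and -2.12 with quality weights. None of these genes passed the main test. Genes under about 1 CPM rest on few counts.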
